A study of Homo sapiens with 6 samples.

Results

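The transcripts of 10 genes of the extracellular matrix, MXRA5, VCAN, BGN, DCN, LUM, HSPG2, AGRN, SRGN, PRELP and OGN, were examined among the 20811 genes of the table. They were chosen by gene name, with their RPM (reads of a gene scaled to a common library total) in HuCCT1/CD90+ and HuCCT1/CD90- cells already known, so their difference between the lines is given as a description, with no p-value, and their calls in the fit over all genes are counted but not used as support. HuCCT1 is a cell line of human intrahepatic cholangiocarcinoma, a cancer of the bile ducts inside the liver. HuCCT1/CD90- cells carried the Lenti-CMV-GFP-2A-Puro-Blank Lentivirus and HuCCT1/CD90+ cells a lentivirus with human THY1-CMV-GFP, both at an MOI of 40, so that cells of both lines were transduced. THY1 is the gene of CD90. Both lines grew in RPMI with fetal bovine serum and received no drug before RNA extraction, as far as the labels say. The labels number 3 libraries per line and do not say whether they come from separate cultures, so p-values measure the spread between these libraries, which may be technical. Whether a line derives from 1 clone is not given in the sources used here. No library of untransduced HuCCT1 cells was included, so it cannot be told in which line a level changed. Below, fell and rose only compare the level in HuCCT1/CD90+ with that in HuCCT1/CD90-.

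Proteoglycans are proteins that carry long sulfated sugar chains (glycosaminoglycans). They fill the space between cells, bind growth factors and help to order collagen fibres. Versican (VCAN) is a large chondroitin sulfate proteoglycan that binds hyaluronan. Perlecan (HSPG2) and agrin (AGRN) carry heparan sulfate and belong to basement membranes. Decorin (DCN), biglycan (BGN), lumican (LUM), prolargin (PRELP) and osteoglycin (OGN) are small leucine-rich repeat proteins, most of which bind collagen. Serglycin (SRGN) is a proteoglycan of secretory granules that is typical of blood cells. MXRA5, also called adlican, holds leucine-rich and immunoglobulin-type repeats. In liver and bile duct tumours, decorin, lumican and versican are known mainly as products of the fibroblasts of the stroma.

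In the GENCODE 29 annotation of GRCh38, MXRA5 lies on the minus strand at chrX:3308565-3346641, VCAN on the plus strand at chr5:83471465-83582303 and SRGN on the plus strand at chr10:69088106-69104811. PRELP lies on the plus strand at chr1:203475828-203491352. DCN (chr12:91140484-91183123) and LUM (chr12:91102629-91111831) lie side by side on the minus strand. HSPG2 is found at chr1:21822245-21937297 and AGRN at chr1:1020123-1056118. The table gives no coordinates for its amplicons, and hg19 is the build named in the submitters' processing notes. Each gene is read over 1 amplicon whose place in the transcript is not known, and VCAN and DCN have 6 and 12 protein-coding transcripts in the basic set, so the isoform could affect a value. MXRA5 also has a pseudogene copy, MXRA5Y, with which reads could be shared. RPM over single amplicons gives no level per length, so where a gene is said to be the most highly read of a list or to make up most of a sum, this refers to reads and not to transcript levels.

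RefSeq promoter windows (GRCh38.p14) were found for 6 of the 10 genes, MXRA5, VCAN, BGN, HSPG2, PRELP and OGN. The 250 bases before the start are printed 5′ to 3′ for MXRA5 and PRELP, which were near 0 in HuCCT1/CD90+, and for HSPG2, which was well read in both lines. Capitals mark the SP1 or KLF box (GGGCGG or CCGCCC) and the TEAD box (GGAATG or CATTCC). The MXRA5 window is chrX:3346653-3346902 (minus strand), that of PRELP chr1:203475556-203475805 (plus strand) and that of HSPG2 chr1:21937311-21937560 (minus strand).
MXRA5: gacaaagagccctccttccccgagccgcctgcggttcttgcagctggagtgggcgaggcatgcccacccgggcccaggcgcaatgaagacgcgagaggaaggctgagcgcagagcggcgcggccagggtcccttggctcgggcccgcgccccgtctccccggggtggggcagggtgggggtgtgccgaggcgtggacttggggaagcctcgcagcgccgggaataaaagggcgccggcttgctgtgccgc
PRELP: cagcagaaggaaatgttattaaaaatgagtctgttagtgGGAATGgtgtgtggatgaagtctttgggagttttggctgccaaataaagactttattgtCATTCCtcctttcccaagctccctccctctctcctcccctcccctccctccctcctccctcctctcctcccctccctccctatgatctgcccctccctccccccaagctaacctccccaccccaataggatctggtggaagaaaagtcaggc
HSPG2: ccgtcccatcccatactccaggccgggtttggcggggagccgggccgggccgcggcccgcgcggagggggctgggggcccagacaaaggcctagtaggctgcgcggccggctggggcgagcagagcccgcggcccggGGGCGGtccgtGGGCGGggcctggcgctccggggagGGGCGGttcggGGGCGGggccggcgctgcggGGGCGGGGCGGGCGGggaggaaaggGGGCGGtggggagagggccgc

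These promoters differed in base composition. The HSPG2 window had 82.8% G or C and 33 CpG pairs, that of MXRA5 72.4% and 25 CpG pairs and that of PRELP 52.8% and 0 CpG pairs, against medians of 58.0% and 11 over 35116 promoter windows of the same length. HSPG2 held 8 SP1 or KLF boxes, some of which overlap each other, while MXRA5 and PRELP held 0, and 42.6% of all windows held at least 1. PRELP held 2 TEAD boxes, a motif present in 11.9% of all windows, and the other windows of the members held 0. An E-box of ZEB and SNAI factors (CAGGTG or CACCTG) and an AP-1 site (TGANTCA) were found in 0 of the members' windows, against 17.5% and 6.6% of all windows. The VCAN window held 1 SP1 or KLF box and that of BGN 5. OGN has 2 windows, and each held 1 TATA box (TATAAA or TTTATA), found in 10.7% of all windows and in none of the other members’ windows. Motifs were read on both strands, and a match or its absence describes these letters only.

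The libraries held 8587634 to 10551516 reads on genes, and 3 reads, used as the detection floor of a library, correspond to 0.284 to 0.349 RPM. THY1 had at most 1 read in each HuCCT1/CD90- library and 435 to 680 reads in each HuCCT1/CD90+ library. The summed level of 6 cholangiocyte markers was 8199 to 9306 RPM in HuCCT1/CD90- against 10940 to 11680 RPM in HuCCT1/CD90+, with 2 of the 6 higher and none lower. These were KRT18 (means of 645 and 1266 RPM) and EPCAM (28.6 and 363 RPM), whereas KRT7 (3433 and 3656 RPM) and KRT19 (3228 and 4146 RPM) were not called. Among other cell types, the leukocyte gene PTPRC had at most 1 read in any library, MS4A1 and the endothelial gene EMCN had 0, and the fibroblast gene FAP had at most 1. The summed level of 6 fibroblast markers was 19.4 to 22.3 RPM in HuCCT1/CD90- against 14.7 to 15.2 RPM in HuCCT1/CD90+, with 3 of the 6 lower (1 with the replicate block) and none higher. Most of this sum came from COL1A1 (means of 13.5 and 14.2 RPM, not called), while the 3 that were called were PDGFRB (5.49 and 0.697 RPM), COL3A1 (0.847 and 0 RPM) and COL1A2 (0.521 and 0 RPM). For 7 leukocyte markers it was 61.3 to 66.6 RPM and 84.7 to 102 RPM, mostly from CD68, with 1 higher and 1 lower (with the replicate block 1 and 0). For 5 endothelial markers it was 14.9 to 23.4 RPM and 1.29 to 1.75 RPM. CDH5 (means of 16.6 and 0.293 RPM) made up most of the sum in HuCCT1/CD90- only. It was the 1 gene of this list that was called. In a bulk library fewer cells that express a gene and less RNA per cell cannot be told apart, and the part of these markers in the results was not tested.

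A gene is called here when its adjusted p from limma on log2(RPM + 1), corrected over all 20811 genes with the Benjamini-Hochberg method, is at most 0.05 and its change on that scale is at least 1.5-fold. Of all genes, 15.1% were called, 7.49% as lower and 7.59% as higher in HuCCT1/CD90+. With the replicate number as a block in the fit 10.1% were called, 4.86% as lower and 5.24% as higher. Of the 10 members, 6 were called as lower (MXRA5, PRELP, VCAN, DCN, SRGN and LUM), 0 as higher, and 4 were not called (HSPG2, AGRN, BGN and OGN). Since the members were chosen from this same contrast, nothing is read from that count. Their values differed widely in size, from 0 reads in every library to log2 fold changes beyond -7.

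MXRA5 showed the largest difference of the 10 genes on the log2(RPM + 1) scale, while the ratio of summed reads was larger for PRELP. It was read at 315, 221 and 290 RPM in the HuCCT1/CD90- libraries and at 0.107, 0.582 and 0.977 RPM in the HuCCT1/CD90+ libraries, the latter being 1, 5 and 9 reads. The lines did not overlap, and HuCCT1/CD90+ was at or close to the detection floor throughout. The means were 275 ± 48.9 RPM and 0.555 ± 0.436 RPM (SD, n = 3 each). The summed reads gave a level 502 times higher in HuCCT1/CD90- (95% exact binomial interval 304 to 897, for counting error only, since PCR reads without molecular identifiers are not independent molecules). The log2 difference, meaning HuCCT1/CD90+ minus HuCCT1/CD90- in mean log2(RPM + 1), which understates the change of low values, was -7.50 (standard error 0.27). The 50 neighbouring genes read at 10 RPM or more on average had a median log2 fold change of 0.055.

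PRELP, whose product binds collagen and heparan sulfate chains of perlecan, was likewise read almost only in HuCCT1/CD90-. Its libraries had 97.1, 77.4 and 69.0 RPM there, against 0.107, 0.233 and 0.109 RPM in HuCCT1/CD90+, which are 1, 2 and 1 reads. All HuCCT1/CD90+ libraries were thus under the floor of 3 reads. The means were 81.2 ± 14.5 and 0.150 ± 0.0722 RPM (SD, n = 3 each), and the ratio of summed reads was 552 with a counting interval from 215 to 2028. Its log2 difference was -6.15 (standard error 0.14), beside a median of -0.30 for its 50 neighbours on chromosome 1.

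VCAN had 50.6, 64.3 and 88.0 RPM in HuCCT1/CD90- and 0.858, 0.699 and 0.434 RPM in HuCCT1/CD90+. Even the lowest HuCCT1/CD90- library lay far above every HuCCT1/CD90+ library, in which 4 to 8 reads were found. The means were 67.6 ± 18.9 and 0.664 ± 0.214 RPM (SD, n = 3 each), a ratio of summed reads of 102 (counting interval 64.3 to 172) and a log2 difference of -5.34 (standard error 0.24).

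DCN, the gene of the small proteoglycan that binds collagen, TGF-β and receptor tyrosine kinases, was weakly read in HuCCT1/CD90- and had 1 read in all HuCCT1/CD90+ libraries together. The HuCCT1/CD90- libraries had 2.27, 11.2 and 7.76 RPM (24, 105 and 80 reads) and those of HuCCT1/CD90+ 0, 0.116 and 0 RPM (0, 1 and 0 reads). The lines did not overlap, but the HuCCT1/CD90- libraries differed strongly among themselves, with replicate 1 lowest. The mean there was 7.09 ± 4.52 RPM (SD, n = 3), and the ratio of summed reads of 188 had a counting interval from 33.3 to 7450. Its log2 difference was -2.77 (standard error 0.54). With the replicate number as a block DCN was not called.

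LUM, the neighbour of DCN and the gene of a keratan sulfate proteoglycan, was lower in HuCCT1/CD90+ but stayed above the detection floor there. It had 17.2, 23.8 and 38.1 RPM in HuCCT1/CD90- and 5.15, 6.99 and 9.77 RPM in HuCCT1/CD90+ (48 to 90 reads). The libraries of both lines varied, yet the highest HuCCT1/CD90+ library stayed under the lowest of HuCCT1/CD90-. Between libraries of the same number the level in HuCCT1/CD90+ was 0.298, 0.294 and 0.256 times that in HuCCT1/CD90-. Means were 26.4 ± 10.7 and 7.30 ± 2.33 RPM (SD, n = 3 each), and the log2 difference was -1.69 (standard error 0.38). LUM lost its call when any 1 of the 6 libraries was left out, and its log2 difference then lay between -1.95 and -1.39. DCN lost it without each library other than HuCCT1/CD90- replicate 1, with values from -2.82 to -2.37.

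SRGN had 57.3, 60.8 and 72.5 RPM in HuCCT1/CD90- and 7.93, 5.59 and 5.43 RPM in HuCCT1/CD90+. The libraries of each line lay close together and far from those of the other line. The means of 63.5 ± 7.93 and 6.32 ± 1.40 RPM (SD, n = 3 each) differed 10.1-fold, with a log2 difference of -3.15 (standard error 0.17). Its chromosome neighbours DDX21 and VPS26A, on either side, had log2 fold changes of 0.03 and 0.17 and were not called.

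**Figure D1:**
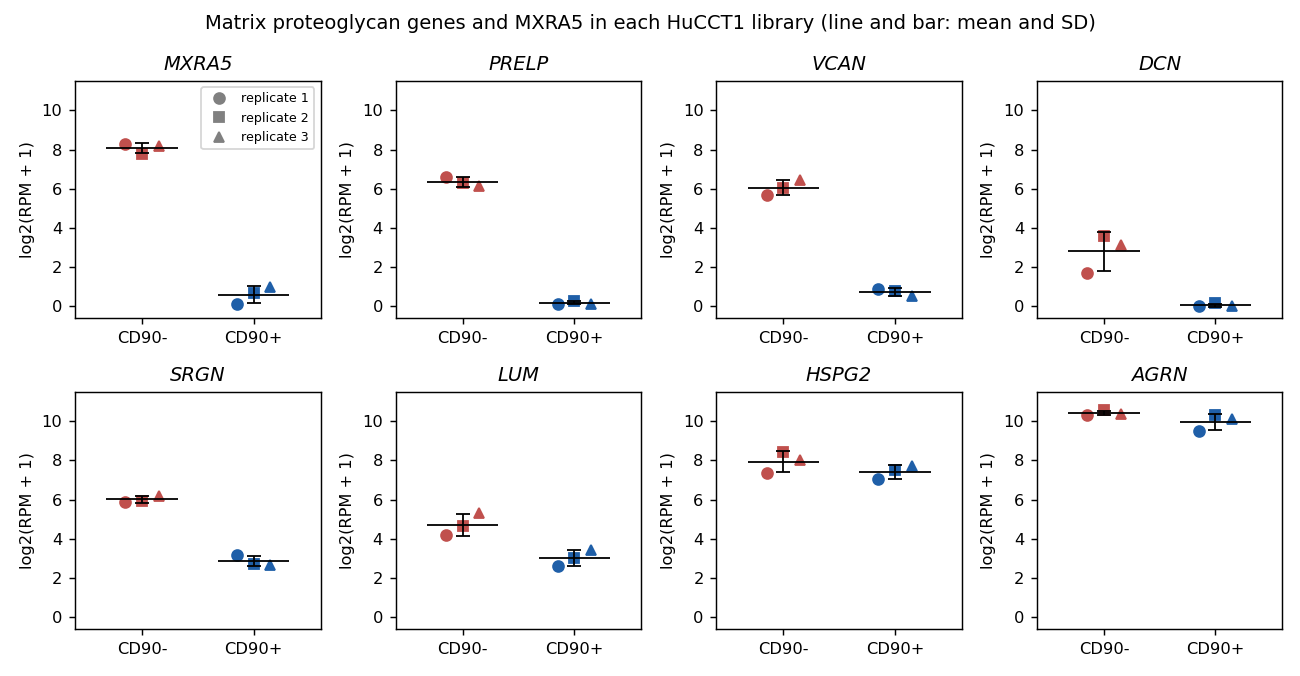
Each panel plots log2(RPM + 1) of 1 gene in the 3 libraries of HuCCT1/CD90- (red) and HuCCT1/CD90+ (blue), with the mean as a line and the SD as a bar. MXRA5, PRELP, VCAN and DCN lie near 0 in HuCCT1/CD90+, SRGN and LUM are lower but read, and the libraries of HSPG2 overlap between the lines.

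The basement membrane genes HSPG2 and AGRN were well read in both lines and were not called. HSPG2 had 162, 344 and 259 RPM in HuCCT1/CD90- and 129, 182 and 207 RPM in HuCCT1/CD90+. The ranges overlapped, and replicate 1 was lowest in both lines. Between libraries of the same number HuCCT1/CD90+ was lower each time, at 0.799, 0.529 and 0.799 times HuCCT1/CD90- for HSPG2 and 0.556, 0.841 and 0.824 times for AGRN. Means were 255 ± 91.1 and 173 ± 39.8 RPM (SD, n = 3 each), with a log2 difference of -0.52 (standard error 0.36). AGRN had 1294, 1493 and 1316 RPM in HuCCT1/CD90- against 719, 1255 and 1085 RPM in HuCCT1/CD90+. Here the ranges did not overlap, although the highest HuCCT1/CD90+ library came within a few percent of the lowest HuCCT1/CD90- library. The means of 1367 ± 109 and 1020 ± 274 RPM (SD, n = 3 each) gave a log2 difference of -0.46 (standard error 0.24). Both genes lie on chromosome 1, whose 952 genes read at 10 RPM or more had a median log2 fold change of -0.32. The 50 neighbours of AGRN had a median of -0.35, and with this subtracted its difference was -0.11. For HSPG2 the neighbours had a median of -0.16 and the remainder was -0.36. Leaving out 1 library moved the difference of AGRN to between -0.63 (without HuCCT1/CD90+ replicate 2) and -0.23 (without HuCCT1/CD90+ replicate 1) and that of HSPG2 to between -0.81 (without HuCCT1/CD90- replicate 1) and -0.27 (without HuCCT1/CD90- replicate 2).

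BGN and OGN had 0 reads in each of the 6 libraries. With 3 reads as the limit that a count of 0 allows, their levels were under 0.349 RPM in every library, and no fold is given. With 1 amplicon per gene a 0 does not show that a gene is not expressed, and AGK, a lipid kinase gene of mitochondria, was also listed at 0 in both lines.

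**Figure D2:**
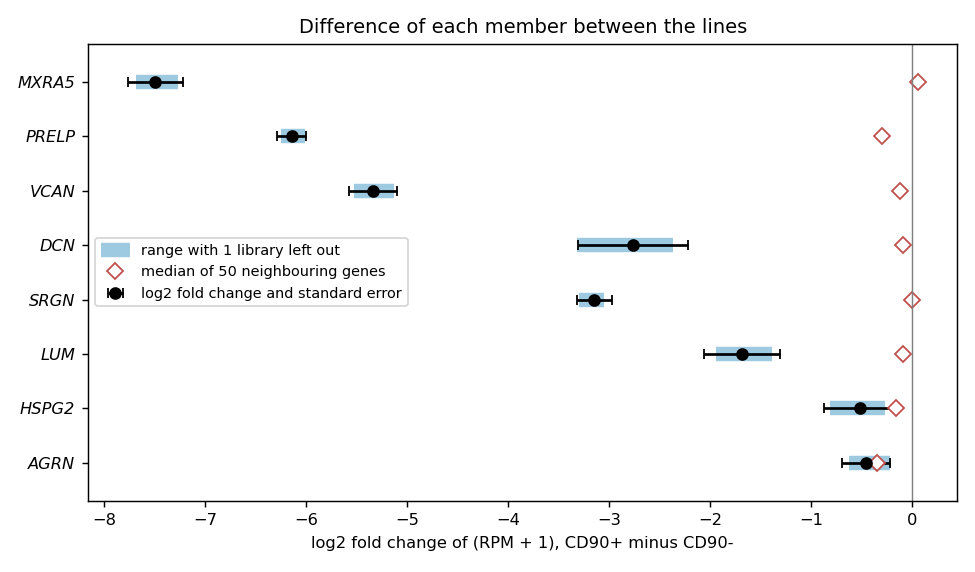
Points show the log2 fold change of (RPM + 1) between the lines with its standard error (n = 3 libraries each), blue bands the range with 1 library left out, and open diamonds the median of 50 neighbouring genes. MXRA5 (-7.50), PRELP (-6.15) and VCAN (-5.34) lie far from their neighbours, whereas AGRN (-0.46) lies beside the median of its own (-0.35).

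The 5 genes whose log2(RPM + 1) profile over the 6 libraries lay nearest to that of MXRA5 were GRAMD1B, SULF1, SELP, FAM105A and TNC, with Euclidean distances from 1.02 (GRAMD1B) to 2.16 (TNC). SULF1 encodes an enzyme that removes sulfate groups from heparan sulfate outside the cell, and TNC the matrix protein tenascin-C. SULF1 had 419 to 444 RPM in HuCCT1/CD90- against 0.107 to 0.349 RPM in HuCCT1/CD90+. GRAMD1B was at 198 to 272 RPM and 0.349 to 0.536 RPM. The ranking follows size and direction in 2 lines and cannot show more than that these genes were high in the same libraries.

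Lists of other genes of the proteoglycan pathway were then examined, 110 genes in 9 lists, of which 105 were measured. The lists were fixed with earlier results of these data known, so their counts and adjusted p-values are given as a description. Of these 105 genes, 22 were called as lower and 12 as higher in HuCCT1/CD90+, beside 7.49% and 7.59% of all genes. Their median log2 fold change was -0.02, against 0 over all genes, and 32 of the 105 had at most 3 reads in every library, as had 6713 of all 20811 genes. The fit with a replicate block called 17 as lower, among them B3GALT6, which was not called without the block, and 8 as higher, beside 4.86% and 5.24% of all genes in that fit. Without HuCCT1/CD90+ replicate 1 the number called in either direction was 20, beside 10.1% of all genes in that fit. The shares of all genes called without a block, 7.49% as lower and 7.59% as higher, also apply to each list below.

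Other small leucine-rich proteoglycans were mostly at the detection floor. Of 11 measured, 2 were called as lower, none as higher, and 7 were at the floor in both lines (median log2 fold change 0). With the replicate block 2 were called as lower (4.86% of all genes) and none as higher. FMOD, the gene of fibromodulin and the direct chromosome neighbour of PRELP, was at 3.83 ± 1.02 RPM in HuCCT1/CD90- and fell to 0.555 ± 0.436 RPM in HuCCT1/CD90+ (SD, n = 3), the same 1, 5 and 9 reads as for MXRA5. Its log2 difference was -1.65 (standard error 0.29, adjusted p = 0.026). PODNL1, a podocan-like gene, fell from 4.29 ± 0.343 to 0.185 ± 0.0668 RPM (log2 difference -2.16, standard error 0.07, adjusted p = 0.00043). CHADL, the most highly read of the others by its mean over both lines, had means of 0.103 and 0.332 RPM. With a pseudocount of 0.1 RPM the adjusted p of FMOD was 0.062, and it was 0.057 to 0.090 without HuCCT1/CD90- replicate 2 or 3 or HuCCT1/CD90+ replicate 1 or 2.

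Among 12 other secreted and basement membrane proteoglycans, 3 were called as lower, none as higher and 9 were at the floor in both lines (median log2 fold change 0). With the replicate block 2 were called as lower (4.86% of all genes) and none as higher. SPOCK1, the gene of testican-1, fell from 62.5 ± 16.5 to 1.07 ± 0.186 RPM (log2 difference -4.91, standard error 0.24, adjusted p = 0.0010). COL18A1, which encodes the heparan sulfate carrying collagen XVIII of basement membranes, fell from 389 ± 33.2 to 88.7 ± 25.5 RPM (log2 difference -2.16, adjusted p = 0.0090). SPOCK3, the gene of testican-3, fell from 7.17 ± 2.69 to 1.51 ± 0.117 RPM (log2 difference -1.65, adjusted p = 0.018, or 0.055 with the replicate block). Its adjusted p was 0.059 to 0.069 without HuCCT1/CD90- replicate 2 or any 1 HuCCT1/CD90+ library. COL15A1, the most highly read of the others, had at most 0.203 RPM as a mean. COL18A1 and HSPG2, both genes of basement membrane heparan sulfate proteoglycans, thus gave 1 called and 1 uncalled difference, and the difference between these genes was not tested.

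Of 9 membrane proteins that can carry glycosaminoglycan chains, 4 were called as lower and 2 as higher (median log2 fold change 0). With the replicate block 2 were called as lower and 2 as higher (4.86% and 5.24% of all genes). CD44, the main hyaluronan receptor, rose from 1.67 ± 0.505 to 14.7 ± 0.457 RPM (log2 difference 2.57, standard error 0.16, adjusted p = 0.0018). CSPG4, a chondroitin sulfate proteoglycan of pericytes and melanoma cells, fell from 7.92 ± 2.58 to 0.396 ± 0.347 RPM (log2 difference -2.67, adjusted p = 0.0089, or 0.071 with the replicate block). THBD, the gene of thrombomodulin, fell from 45.8 ± 16.5 to 8.91 ± 2.11 RPM (log2 difference -2.21, adjusted p = 0.014). CD74, the invariant chain of MHC class II, fell from 9.95 ± 3.62 to 3.76 ± 0.195 RPM (log2 difference -1.16, adjusted p = 0.042, or 0.11 with the replicate block and 0.060 with a pseudocount of 5 RPM). APLP2 had means of 165 and 171 RPM and was not called. Without HuCCT1/CD90+ replicate 1 or 3 the adjusted p of THBD was 0.054 and 0.062, and that of CD74 was 0.075 to 0.13 without any 1 library but HuCCT1/CD90- replicate 2.

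Of 22 measured genes for enzymes that start and build chondroitin and dermatan sulfate chains, 3 were called as lower and 3 as higher, with a median log2 fold change of -0.18. With the replicate block 4 were called as lower and 1 as higher (4.86% and 5.24% of all genes). XYLT1, one of the xylosyltransferases that attach the first sugar to a core protein, fell from 40.2 ± 0.861 to 10.0 ± 1.53 RPM (log2 difference -1.91, standard error 0.11, adjusted p = 0.0015). Its paralogue XYLT2 had 126 ± 8.16 and 116 ± 11.4 RPM and was not called (log2 difference -0.12, adjusted p = 0.52). DSEL, an epimerase of dermatan sulfate, fell from 7.52 ± 1.42 to 2.39 ± 0.352 RPM (log2 difference -1.32, adjusted p = 0.010). The sulfotransferase genes UST and CHST15 rose, UST from 2.62 ± 0.812 to 10.04 ± 1.58 RPM (log2 difference 1.63, adjusted p = 0.012) and CHST15 from 20.1 ± 5.86 to 61.4 ± 5.91 RPM (adjusted p = 0.019, under the replicate block 0.072). The adjusted p of UST was 0.051 to 0.052 without HuCCT1/CD90- replicate 3 or HuCCT1/CD90+ replicate 2 or 3, and that of CHST15 was 0.057 to 0.078 without HuCCT1/CD90- replicate 2 or any 1 HuCCT1/CD90+ library.

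For keratan sulfate, the chain of lumican and fibromodulin, 2 of 7 genes were called as higher and 1 as lower, with a median log2 fold change of -0.17. With the replicate block 2 were called as higher and none as lower (5.24% and 4.86% of all genes). The galactosyltransferase B4GALT4 rose from 17.2 ± 1.89 to 46.0 ± 5.98 RPM (log2 difference 1.37, adjusted p = 0.0053). The sulfotransferase CHST4 rose from 0.334 ± 0.123 to 1.73 ± 0.362 RPM (log2 difference 1.03, adjusted p = 0.010), but was under the 1.5-fold limit with a pseudocount of 5 RPM (log2 difference 0.33). B4GALT1 fell from 200.1 ± 20.4 to 101 ± 9.03 RPM (log2 difference -0.98, adjusted p = 0.0070, or 0.062 with the replicate block). B3GNT2, with means of 21.8 and 27.6 RPM, was not called.

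The hyaluronan genes held the partners of versican. Of 17 measured, 3 were called as lower and none as higher, with a median log2 fold change of -0.10. With the replicate block 2 were called as lower (4.86% of all genes) and none as higher. HAPLN1, the link protein that holds versican on hyaluronan, fell from 268 ± 42.9 to 57.1 ± 8.51 RPM (log2 difference -2.21, standard error 0.18, adjusted p = 0.0033). HAS2, a hyaluronan synthase, fell from 4.41 ± 1.76 to 0.216 ± 0.217 RPM (log2 difference -2.12, adjusted p = 0.014). KIAA1199 (now CEMIP), which takes part in hyaluronan breakdown, fell from 48.9 ± 14.3 to 17.5 ± 4.35 RPM (log2 difference -1.42, adjusted p = 0.038, or 0.11 with the replicate block). TMEM2 (now CEMIP2) had means of 54.0 and 45.1 RPM and was not called. The adjusted p of HAS2 was 0.052 to 0.055 without HuCCT1/CD90- replicate 2 or HuCCT1/CD90+ replicate 1 or 2, and that of KIAA1199 was 0.066 to 0.12 without any 1 library but HuCCT1/CD90- replicate 1.

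Of 12 genes whose products cut or trim core proteins or their chains, 3 were called as lower and 1 as higher (median log2 fold change -0.21). With the replicate block 3 were called as lower and none as higher (4.86% and 5.24% of all genes). ADAMTS15 and ADAMTS9, both of which belong to the group of proteases that cut versican and aggrecan, went in opposite directions. ADAMTS15 fell from 28.7 ± 1.63 to 5.71 ± 1.88 RPM (log2 difference -2.19, adjusted p = 0.0085), while ADAMTS9 rose from 0.931 ± 0.347 to 6.40 ± 2.08 RPM (log2 difference 1.92, adjusted p = 0.015, or 0.051 with the replicate block). TLL1, a protease related to BMP1, fell from 20.9 ± 4.88 to 5.94 ± 1.54 RPM (log2 difference -1.66, adjusted p = 0.016). HPSE, the gene of heparanase, fell from 10.1 ± 1.07 to 5.49 ± 0.256 RPM (log2 difference -0.77, adjusted p = 0.0069), and was likewise under the 1.5-fold limit with a pseudocount of 5 RPM (-0.52). BMP1, which trims several matrix precursors, had means of 32.8 and 29.1 RPM and was not called. Without HuCCT1/CD90- replicate 2 or HuCCT1/CD90+ replicate 1 the adjusted p of ADAMTS9 was 0.055 and 0.060, and without HuCCT1/CD90- replicate 1 or HuCCT1/CD90+ replicate 1 that of TLL1 was 0.051 and 0.063.

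Receptors and binding partners of the core proteins moved both ways, with 4 of 13 called as higher and 3 as lower and a median log2 fold change of 0.05. With the replicate block 3 were called as higher and 2 as lower (5.24% and 4.86% of all genes). CD14, a co-receptor of the Toll-like receptors that biglycan and versican fragments can engage, fell from 80.8 ± 10.2 to 4.32 ± 0.195 RPM (log2 difference -3.94, standard error 0.11, adjusted p = 0.00037). TLR2 rose from 0.303 ± 0.120 to 3.42 ± 0.241 RPM (log2 difference 1.77, adjusted p = 0.00099), whereas TLR4 had 32.4 ± 6.02 and 38.8 ± 7.46 RPM and was not called (adjusted p = 0.54). LRP4, the agrin receptor of muscle, fell from 4.29 ± 0.669 to 0.371 ± 0.137 RPM (log2 difference -1.95, adjusted p = 0.0021). ITGA2, the integrin subunit that binds collagen and the perlecan fragment endorepellin, rose from a mean of 53.5 to a mean of 177 RPM (log2 difference 1.73, adjusted p = 0.0083). The 2 other genes named matrix remodelling associated, MXRA7 and MXRA8, were not called, and MXRA7 had means of 1.59 and 0.880 RPM.

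**Figure D3:**
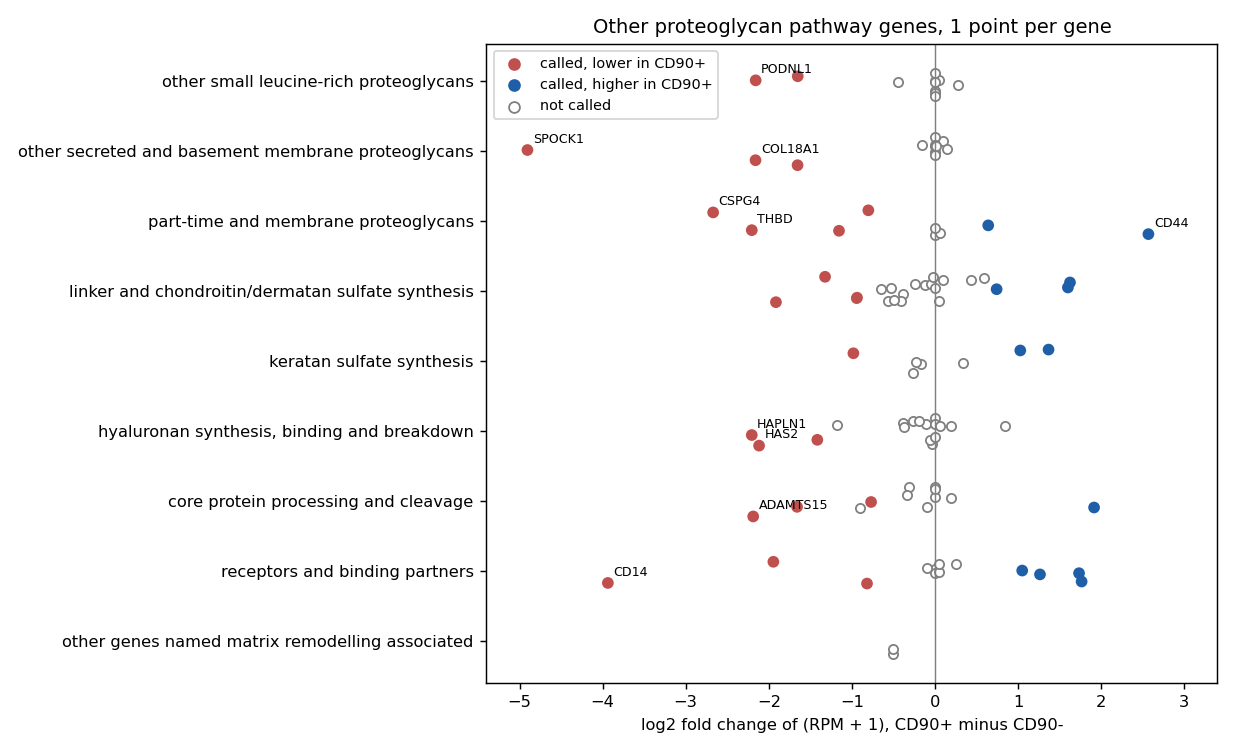
Each point is 1 of 105 measured genes, placed by its log2 difference of (RPM + 1) between the lines in its list, red where called as lower and blue where called as higher in HuCCT1/CD90+. SPOCK1 (-4.91) and CD14 (-3.94) lie farthest to the left and CD44 (2.57) farthest to the right.

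Several of the genes that were lower lie next to each other on their chromosomes. HAPLN1 follows VCAN directly among the measured genes of chromosome 5. FMOD is the neighbour of PRELP, and OPTC, on the other side of PRELP, had 0 reads in all libraries. ATP2B4, the measured gene after OPTC, was called as lower (log2 fold change -0.896). LUM and DCN are neighbours, and KERA and EPYC, the small leucine-rich proteoglycan genes beyond LUM, had 0 reads. On the other side of DCN the values went the other way. BTG1 was not called (log2 fold change 1.305, adjusted p = 0.058 from limma), and EEA1, farther on, was called as higher (1.033). ASPN and ECM2, which lie near OGN, had 0 reads in all libraries as OGN had, and OMD had at most 1. The medians over 50 neighbours were -0.12 for VCAN, -0.09 for DCN and LUM and -0.30 for PRELP.

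**Figure D4:**
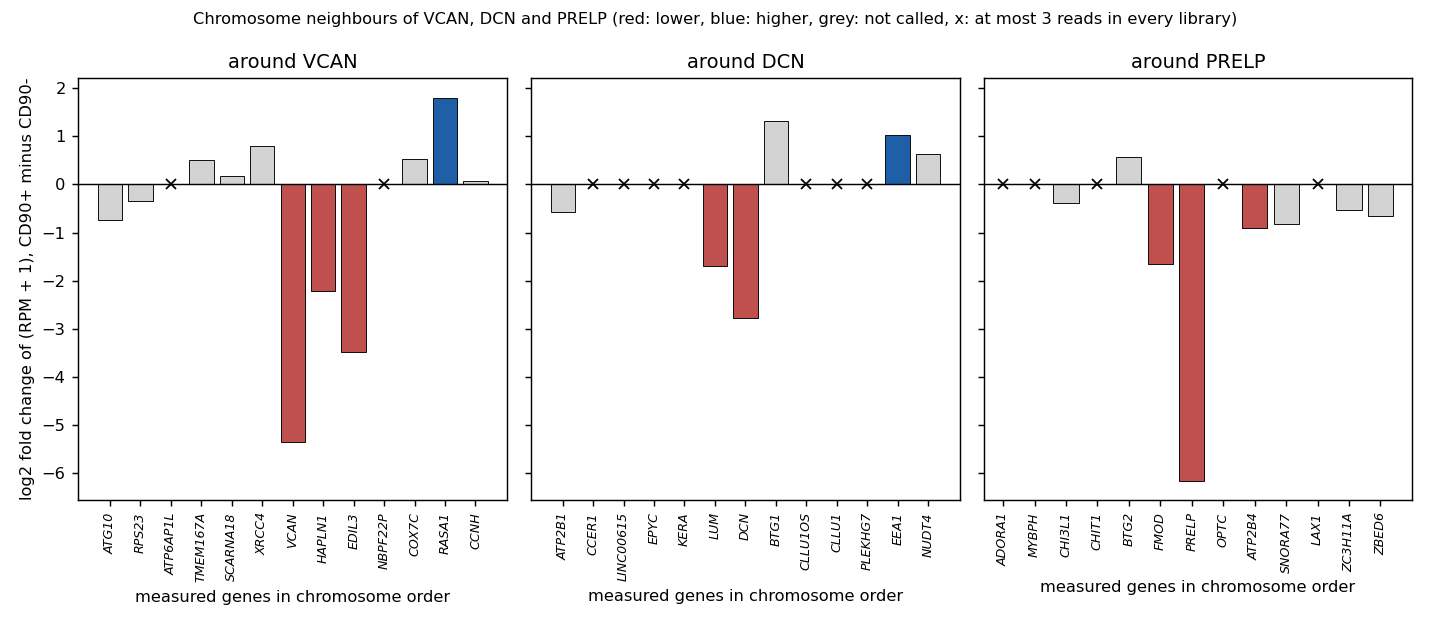
Bars give the log2 fold change of (RPM + 1) for up to 6 measured genes on either side of VCAN, DCN and PRELP in chromosome order, red and blue where called and grey where not, with a cross for genes with at most 3 reads in every library. VCAN (-5.34) stands beside HAPLN1 (-2.21), PRELP (-6.15) beside FMOD (-1.65), and DCN (-2.77) beside LUM (-1.69).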

How the data were processed

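RNA from both HuCCT1 lines was reverse transcribed, amplified by an Ion AmpliSeq Transcriptome panel with 1 amplicon per gene and sequenced. The authors obtained read numbers from the ampliSeqRNA plugin. The deposited values are RPM, scaled by the authors to the same total in each of the 6 libraries, without a filter. Whole reads were recovered from the RPM steps for 100% of the values (within 0.1 read). In a chi-square comparison every pair of libraries differed by more than sampling noise. Reading 1 amplicon per gene makes a value depend on that amplicon.

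Differences were fitted with limma 3.58.1 in R 4.3.3 (lmFit and eBayes, default settings) on log2(RPM + 1) for the full table, without a block. Members, lists and motifs were chosen with earlier results of these data known. Text names were set by rule: all members, up to 4 called genes per list by size of change and the most highly read uncalled gene, family neighbours, and the 5 profiles nearest to MXRA5. Of the list genes, 5 were not matched and 3 were matched by an older symbol. Same-numbered libraries deviated together (r = 0.21, 0.32 and 0.18), which was taken as pairing from the data alone. The main fit nevertheless has no block, since the paper's methods name limma eBayes and no block. Its adjusted p-values therefore leave this pairing out. Called pathway genes named without a block value kept their call with the block. Alternatives included edgeR 4.0.16 (4200 genes called after filterByExpr) and DESeq2 1.42.0 (4236) on recovered reads, other pseudocounts, scalings and filters, the block and each library left out.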

Additional observations from a re-analysis of the deposited data

How the results depend on the processing

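The members were chosen from the contrast itself, so the numbers of them called are description and no evidence of stability. The replicate block called 5 of the 10 members (without DCN), 25 of the 105 pathway genes and 2102 of all genes, against 6, 34 and 3138. With 1 library left out the numbers were 4 to 5, 20 to 32 and 1868 to 2414; the count over all genes was 2083 without HuCCT1/CD90- replicate 3 and 1868 without HuCCT1/CD90+ replicate 3. A pseudocount of 5 RPM called 4 members, without DCN and LUM, and 2413 of all genes. Trend and robust settings called 5 members, without LUM, and 2977 of all genes. Under the unadjusted rule of the paper's methods 6 members, 38 pathway genes and 4186 genes passed. Sizes near the floor depend on the pseudocount and tool, and the log2 fold change of DCN ranged from -7.46 to -1.19, that of PRELP from -9.10 to -4.05 and that of MXRA5 from -9.00 to -5.64. Among uncalled genes, APLP2 (0.060) changed sign without HuCCT1/CD90- replicate 1 (-0.068) or HuCCT1/CD90+ replicate 3 (-0.021), and BMP1 (-0.094) without HuCCT1/CD90- replicate 2 (0.146) or 3 (0.003), their ranges with 1 library left out being -0.068 to 0.151 and -0.433 to 0.146; the cause was not tested. At this depth BGN and OGN gave no read, and DCN 1 read in all HuCCT1/CD90+ libraries together.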

Other observations

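Beyond HAPLN1, the next gene on chromosome 5 is EDIL3, which encodes a secreted integrin-binding matrix protein. It was looked at after its values were seen. EDIL3 fell from a mean of 295 RPM to a mean of 25.5 RPM in HuCCT1/CD90+ (log2 difference -3.49, adjusted p = 0.00043 from limma), so that 3 adjacent measured genes, VCAN, HAPLN1 and EDIL3, were lower together. XRCC4, on the other side of VCAN, was not called (log2 difference 0.80, adjusted p = 0.14). RASA1, a few genes beyond EDIL3, rose from 56.5 to 203 RPM (log2 difference 1.80, adjusted p = 0.0088).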
